A study of Mus musculus with 12 samples.

Results

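To examine the Wnt and β-catenin pathway in primitive CML cells, 8 of its genes were followed through bulk RNA-seq of murine bone marrow (BM) cells with and without BCR::ABL1. The genes were chosen by symbol and were Ctnnb1, Axin1, Axin2, Apc, Gsk3b, Tcf7, Lef1 and Tcf7l2. All 8 were found among the 56748 gene identifiers in the count data, and all 8 passed the filter on low counts.

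The cells were CD45.2+ Lin-Sca+Kit+ (LSK) cells, the sorted BM fraction that holds the stem cells and multipotent progenitors. They came from SCLtTA/BCR-ABL double transgenic (DTG) marrow that had been transplanted into irradiated CD45.1 B6.SJL recipients, labelled as 8 to 12 weeks old. In the DTG line a tetracycline (TET) controlled transactivator is driven by SCL regulatory sequence, so that BCR::ABL1 is silent on TET and switched on in stem and progenitor cells once TET is withdrawn. All recipients drank TET for 2 weeks after transplantation. TET was then withdrawn for 2 weeks in the BCR::ABL1+ group (labelled CML 2wk, n = 6 libraries) and continued in the BCR::ABL1- group (labelled CTRL, n = 6 libraries), so that control cells carried both transgenes as well. The donor marrow was a frozen pool from DTG mice of both sexes, and the labels do not say whether each library is a separate recipient, so p-values measure the spread between these libraries only. The labels give every BCR::ABL1- library as male and every BCR::ABL1+ library as female, although the study's methods speak of recipients of both sexes. If the labels hold, an effect of sex cannot be told apart from that of BCR::ABL1. By library number, BCR::ABL1- libraries 1 to 5 formed 1 series, BCR::ABL1+ libraries 1 to 5 another, and library 6 of both groups shared 1 more. What a series stands for is not known here. Outside library 6, an effect of series cannot be told apart from that of BCR::ABL1 either.

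The count totals of single libraries ran from 22804754 to 41832868 without BCR::ABL1 and from 16150817 to 25070105 with it. Mitochondrial genes took 0.816–1.29% of the counts in controls and 2.26–2.97% of those in BCR::ABL1+ libraries. Of 10 LSK markers none was at 0 in either group, and their summed level was 2670–3066 CPM (counts scaled to library size) in controls against 1590–1994 CPM in BCR::ABL1+ libraries, with 8 of 10 lower and 1 higher. Mast cell and basophil markers went from 317–450 to 561–2994 CPM (8 of 10 higher, 1 lower) and monocyte markers from 214–274 to 407–998 CPM (3 of 10 higher, 1 lower). These are calls at an edgeR adjusted p under 0.05, at which 30.6% of all genes tested were higher and 29.0% lower. No marker of these lists was at 0 in all libraries of a group, but BCR::ABL1- library 2 had counts for 9 of the 10 mast cell and basophil markers. BCR::ABL1+ libraries 2 and 4 stood apart in stromal and endothelial markers, with 1096 and 484 CPM against at most 253 CPM in every BCR::ABL1- library. In bulk samples fewer cells of a type and less RNA per cell cannot be told apart. The part of these differences in the results below was not tested.

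In the canonical pathway, β-catenin (Ctnnb1) is held low by a destruction complex in which the scaffolds Axin1, Axin2 and Apc bring it to the kinase Gsk3b, which marks it for degradation. A Wnt ligand bound to Frizzled and Lrp5 or Lrp6 receptors inactivates the complex through Dishevelled, and β-catenin then enters the nucleus and joins the TCF/LEF factors Tcf7, Lef1, Tcf7l1 and Tcf7l2. Axin2 and Lef1 are themselves textbook targets of the pathway. β-catenin is known as a regulator of self-renewal in haemopoietic and leukaemic stem cells, and most of its control is on the protein, which mRNA levels do not show.

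The core of a TCF/LEF site reads TCAAAG, or CTTTGA on the other strand. It was looked for on both strands in RefSeq promoter windows of build GRCm38.p6, each with 250 bases before and 50 bases after a transcription start. Windows on the chromosome of Apc were left out for the 8 genes, though not from the count over the whole table. With these left out, 6 of the 8 genes were matched by symbol (all but Axin1 and Apc), with 12 windows. Of these 12 windows 2 held the core, 1 of Gsk3b (77 bases before the start) and 1 of Lef1 (180 and 120 bases before the start), while 16.0% of all 32851 windows in the table held it. The 250 bases before the start are shown for both windows with the core, for Axin2, the textbook target, and for a start of Tcf7l2, which fell in BCR::ABL1+ cells. They are written 5′ to 3′ with the core in capitals.
Gsk3b (chr16:38088751-38089000, plus strand): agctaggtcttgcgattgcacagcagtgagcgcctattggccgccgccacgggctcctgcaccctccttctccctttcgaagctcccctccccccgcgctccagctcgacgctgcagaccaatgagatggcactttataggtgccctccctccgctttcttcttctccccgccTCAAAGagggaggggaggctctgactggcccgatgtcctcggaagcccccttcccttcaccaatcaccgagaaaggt
Lef1 (chr3:131156044-131156293, plus strand): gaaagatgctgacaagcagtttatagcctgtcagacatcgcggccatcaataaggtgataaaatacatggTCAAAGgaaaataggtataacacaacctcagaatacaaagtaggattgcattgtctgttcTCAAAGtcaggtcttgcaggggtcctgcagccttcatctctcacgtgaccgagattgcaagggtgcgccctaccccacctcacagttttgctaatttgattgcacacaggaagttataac
Axin2 (chr11:108920099-108920348, plus strand): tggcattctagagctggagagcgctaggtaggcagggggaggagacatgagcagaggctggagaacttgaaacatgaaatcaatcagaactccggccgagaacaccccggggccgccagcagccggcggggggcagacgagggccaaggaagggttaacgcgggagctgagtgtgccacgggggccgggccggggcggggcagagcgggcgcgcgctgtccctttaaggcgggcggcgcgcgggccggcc
Tcf7l2 (chr19:55741560-55741809, plus strand): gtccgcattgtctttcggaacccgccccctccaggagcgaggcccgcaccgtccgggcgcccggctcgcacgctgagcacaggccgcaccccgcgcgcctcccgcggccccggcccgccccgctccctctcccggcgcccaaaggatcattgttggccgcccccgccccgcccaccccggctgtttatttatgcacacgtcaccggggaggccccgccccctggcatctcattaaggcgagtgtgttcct
The Lef1 window belongs to the most downstream of its 4 starts in the table. Counts per gene do not tell starts apart, and a match or its absence is a description of these letters only.

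Of the 8 Wnt genes 4 fell in BCR::ABL1+ LSK cells at an adjusted p under 0.05 (quasi-likelihood test of edgeR, Benjamini-Hochberg adjustment across the 18438 genes tested). None rose, with 0 higher at an unadjusted p under 0.05 and 0 by DESeq2 or limma-voom as well. The 4 were Apc, Axin1 and Gsk3b of the destruction complex and the TCF/LEF factor Tcf7l2, and in each of them every BCR::ABL1+ library lay below every BCR::ABL1- library. β-catenin itself, Axin2 and Tcf7 did not pass the test, and Lef1 missed it. These counts stand against a whole table in which 59.5% of the genes tested were called, 30.6% higher and 29.0% lower, and in which 20.6% were lower without overlap of the groups. The median log2 fold change was −0.49 over the 8 genes and 0.07 over all genes tested.

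**Figure D1:**
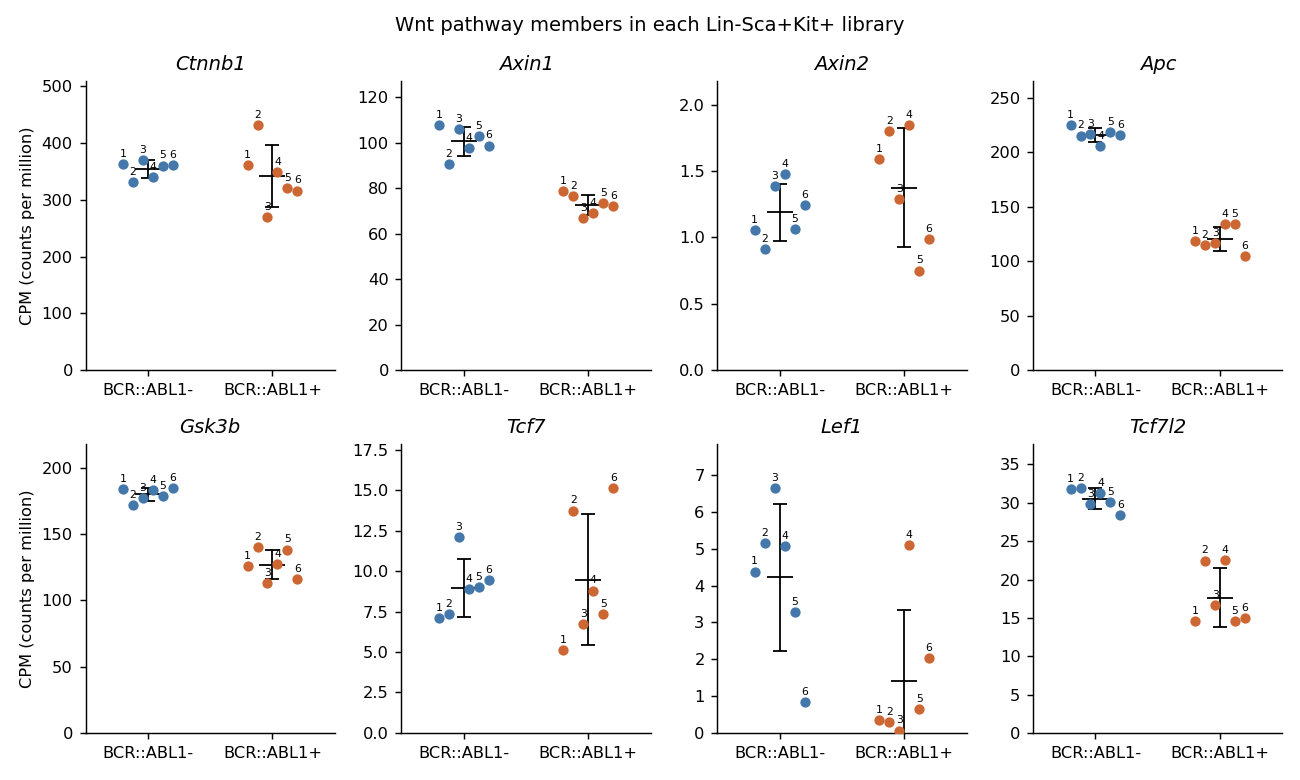
Level of each of the 8 genes in CPM (y axis, from 0, scale set per gene) in the 6 BCR::ABL1- and 6 BCR::ABL1+ libraries (x axis). Points are libraries with their replicate number and bars are mean ± SD, with the bar of Lef1 ending at the axis. The groups are separate for Axin1, Apc, Gsk3b and Tcf7l2 and overlap for Ctnnb1, Axin2, Tcf7 and Lef1.

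Ctnnb1 was the most abundant of the 8 per length, at 266 ± 11.3 TPM (reads per length, summing to the same total in every library) in BCR::ABL1- and 216 ± 43.4 TPM in BCR::ABL1+ cells (mean ± SD, n = 6 each). On the CPM scale its lowest, median and highest libraries were at 330.3, 361 and 369 CPM without BCR::ABL1 and at 269, 335 and 431 CPM with it. The BCR::ABL1+ libraries reached both below and above all BCR::ABL1- libraries, and the log2 fold change was −0.05 (SE 0.0916, edgeR adjusted p = 0.633). BCR::ABL1+ libraries also differed more among themselves, with a coefficient of variation of 16.0% against 4.35%. The same held for 7 of the 8 genes, the exception being Axin1 with 6.13% against 6.23%. The sign for Ctnnb1 depended on the scaling of the libraries. It was 0.02 with upper-quartile factors, and −0.30 (edgeR adjusted p = 0.0326) when library size was summed from reads per kilobase, a setting that moved the median of all genes from 0.07 to −0.18.

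In BCR::ABL1- cells the others followed per length in the order Axin1 (102 ± 4.43 TPM), Gsk3b (71.3 ± 2.98), Apc (52.2 ± 2.17), Tcf7l2 (13.6 ± 0.679), Tcf7 (13.3 ± 2.49), Lef1 (1.86 ± 0.861) and Axin2 (0.840 ± 0.143). Tcf7l2 and Tcf7 did not differ beyond their spread, and Lef1 and Axin2 overlapped between libraries. In BCR::ABL1+ cells the order was Axin1 (62.2 ± 6.87 TPM), Gsk3b (42.4 ± 6.72), Apc (24.6 ± 4.17), Tcf7 (11.6 ± 4.45), Tcf7l2 (6.62 ± 1.71), Axin2 (0.822 ± 0.291) and Lef1 (0.527 ± 0.751), where the same neighbours overlapped.

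Apc, the large scaffold known as a tumour suppressor of the gut, showed the largest drop of the destruction complex. Its BCR::ABL1- libraries had 206, 216 and 225 CPM (lowest, median and highest) and its BCR::ABL1+ libraries 105, 117 and 134 CPM. The log2 fold change was −0.84 (SE 0.0642, edgeR adjusted p = 1.11e-07), a level 44.2% lower. For Gsk3b, the kinase, the corresponding values were 172, 181 and 185 CPM against 113, 127 and 140.0 CPM. It fell by 0.50 on the log2 scale (SE 0.0611, edgeR adjusted p = 6.23e-06). Axin1, the constitutive scaffold, went from 90.6, 101 and 108 CPM to 66.7, 72.8 and 78.7 CPM. Its log2 fold change was −0.47 (SE 0.0591, edgeR adjusted p = 9.53e-06), a level 27.7% lower. In all 3 genes each of the 6 BCR::ABL1+ libraries was below each of the 6 controls.

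Axin2, the inducible scaffold, was the least abundant of the 8 in BCR::ABL1- cells, at 0.840 ± 0.143 TPM. Its lowest, median and highest controls had 0.912, 1.15 and 1.47 CPM, and its BCR::ABL1+ libraries 0.750, 1.44 and 1.84 CPM. BCR::ABL1+ libraries 1, 2 and 4 lay above every control and library 5 below every control, and the log2 fold change of 0.20 (SE 0.248) had an edgeR adjusted p of 0.502. BCR::ABL1+ libraries 2 and 4, those with the most stromal marker counts, were also the 2 highest for Axin2, and without them the log2 fold change was −0.08 (edgeR adjusted p = 0.785).

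Among the TCF/LEF factors Tcf7l2 fell clearly. It had 28.4, 30.7 and 32.0 CPM in BCR::ABL1- libraries (lowest, median and highest) and 14.6, 15.8 and 22.5 CPM in BCR::ABL1+ libraries. The log2 fold change was −0.79 (SE 0.119, edgeR adjusted p = 4.67e-05). BCR::ABL1+ libraries 2 and 4 were its highest, at 22.5 CPM each, and the other 4 lay between 14.6 and 16.7 CPM, so the groups stayed separate in either case. Tcf7, encoding TCF-1, a factor best known from T cell development, did not move as a group. Its libraries were at 7.08, 8.93 and 12.1 CPM and at 5.10, 8.07 and 15.1 CPM, with a log2 fold change of 0.08 (SE 0.242, edgeR adjusted p = 0.784). The lowest and the highest library of Tcf7 were both BCR::ABL1+. T cell and NK cell markers, 103.5–134 CPM in BCR::ABL1- libraries, were 118–228 CPM in BCR::ABL1+ libraries. Of the 9 tested 3 were called higher and 4 lower, against 30.6% and 29.0% of all genes tested. None of the 10 on the list was at 0 in all libraries of a group. BCR::ABL1+ libraries 1, 2, 4 and 5 had counts for 6, 8, 9 and 7 of them.

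Lef1, expressed in lymphoid progenitors, had the largest fold change of the 8 and the largest error. Its BCR::ABL1- libraries 1 to 6 had 4.38, 5.15, 6.66, 5.07, 3.28 and 0.83 CPM, and its BCR::ABL1+ libraries 1 to 6 had 0.34, 0.30, 0.06, 5.10, 0.64 and 2.02 CPM. So 5 BCR::ABL1- libraries were high and 4 BCR::ABL1+ libraries low, with 3 exceptions that made the groups overlap. The log2 fold change of −1.59 (SE 0.707) had an unadjusted p of 0.0402 and an edgeR adjusted p of 0.0650. A single library decided the call, since the adjusted p was 0.0388 without BCR::ABL1- library 6 (log2 fold change −1.81) and 0.00294 without BCR::ABL1+ library 4 (log2 fold change −2.63). The summed level of 10 B lineage markers moved with these exceptions. It was lowest in BCR::ABL1- library 6 among the controls (38.2 CPM, against 155 CPM in the highest) and highest in BCR::ABL1+ libraries 4 and 6 (114 and 88.8 CPM, against 28.3 CPM in the lowest). Of the 10 markers 4 were called lower and 0 higher, against 29.0% and 30.6% of all genes tested. None was at 0 in all libraries of a group, but BCR::ABL1+ library 2 had counts for 4 of the 10 markers. Their part in the Lef1 values was not tested.

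The makeup of the TCF/LEF family was compared per length, as shares of the summed TPM of Tcf7, Lef1, Tcf7l1 and Tcf7l2 in a library. In BCR::ABL1- cells Tcf7l2 and Tcf7 took like shares, 43.6% ± 4.18 and 42.3% ± 5.69 (SD, n = 6), followed by Tcf7l1 with 8.14% ± 1.48 and Lef1 with 5.90% ± 2.57. In BCR::ABL1+ cells Tcf7 took 57.2% ± 9.31, Tcf7l2 34.1% ± 7.31, Tcf7l1 6.28% ± 3.06 and Lef1 2.38% ± 3.12. Tcf7l1, a family member best known as a repressor, fell as well, by 0.82 on the log2 scale (SE 0.253, edgeR adjusted p = 0.0124). The family sum lay at 28.6–34.9 TPM in controls, and at 13.5–28.4 TPM once BCR::ABL1 was on. The groups did not overlap, and the mean difference of −0.69 on the log2 scale had a two-sided exact permutation p of 0.00216, the smallest that 6 against 6 libraries allow, and an adjusted p of 0.0108 over 5 values tested. The sum depended on the scale. As CPM per kilobase with TMM scaling it was 7.47 to 9.29 against 4.13 to 8.40, with a difference of −0.44 and an exact permutation adjusted p of 0.0584.

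**Figure D2:**
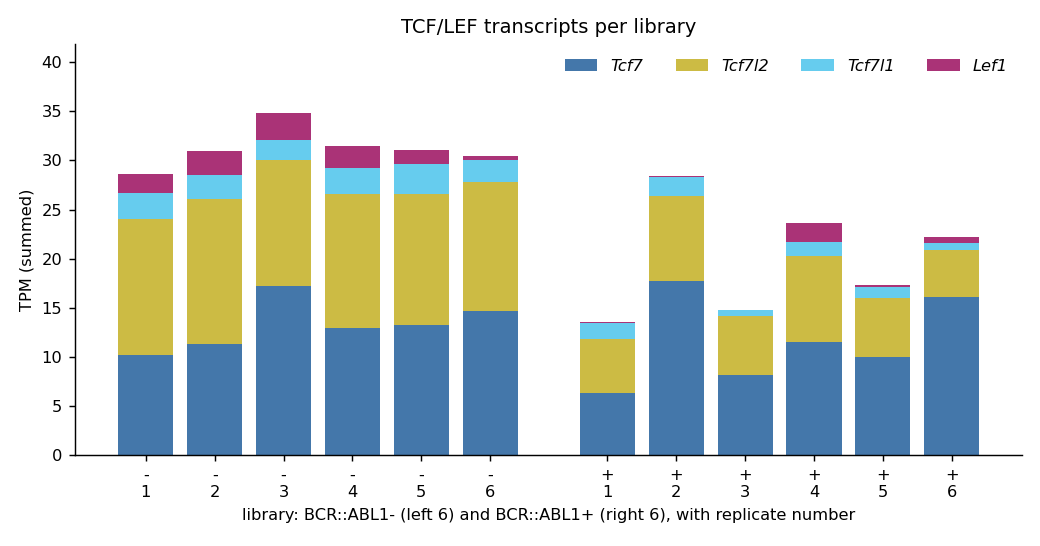
TPM of the 4 TCF/LEF genes (y axis, stacked from 0) in each library (x axis), BCR::ABL1- on the left and BCR::ABL1+ on the right with their replicate numbers. The stacks reach 28.6 to 34.9 TPM on the left and 13.5 to 28.4 TPM on the right, and Lef1 is hardly visible in 4 of the right-hand stacks.

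Ratios of reads per kilobase within a library, which need no scaling between libraries, were compared for 4 pairs by the same exact permutation test and adjustment. A trend of fold change with gene length, described below, does not cancel in such a ratio. Gsk3b has 9.8 kb of exon and Gsk3a 2.9 kb, while Tcf7 has 2.6 kb and Lef1 8.8 kb. The ratios were not tested with length or GC trends removed. Gsk3b stood at 0.772 to 0.862 times its paralogue Gsk3a in controls and at 0.841 to 1.07 times with BCR::ABL1 on. The log2 ratio was higher by 0.28 (two-sided exact permutation p = 0.00433, adjusted p = 0.0108), while both kinases fell, Gsk3a by 0.78 on the log2 scale (SE 0.0668, edgeR adjusted p = 2.84e-07). Axin2 was at a ratio of 0.00680 to 0.0105 to Axin1 in controls, and of 0.00710 to 0.0186 with BCR::ABL1 on. That log2 ratio was higher by 0.63 (exact permutation p = 0.0281, adjusted p = 0.0379). BCR::ABL1+ libraries 1 to 4 lay above every control, at 0.0140, 0.0164, 0.0134 and 0.0186. Without libraries 2 and 4, its 2 highest, the difference was 0.39 with an exact permutation adjusted p of 0.124, in a test on fewer libraries. The Tcf7 to Lef1 ratio was 4.76 to 38.0 in controls and 5.77 to 368 with BCR::ABL1 on, the highest value being that of a library with 1 count of Lef1. Its log2 difference was 2.60 (exact permutation p = 0.0303, adjusted p = 0.0379). With single libraries left out, the adjusted p of each of these 2 ratios went up to 0.0758, that is past the threshold. Jup, plakoglobin, the closest relative of β-catenin, was at 0.0292 to 0.0379 times Ctnnb1 in controls and 0.0133 to 0.0503 times with BCR::ABL1 on (difference −0.59, exact permutation adjusted p = 0.0563). BCR::ABL1+ library 2 held the highest of these ratios, and without it the difference was −0.82 with an exact permutation adjusted p of 0.0144.

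Fold changes in these libraries moved with gene length, and the 8 genes are mostly long. Over 17803 genes tested with a summed exon length, the median log2 fold change was 0.50 in the quintile with the shortest genes (up to 1.52 kb), then 0.24, 0.03 and −0.14, and −0.27 in the quintile with the longest (from 6.59 kb). The share of genes called lower went from 5.98% in the shortest to 51.9% in the longest quintile. The longest quintile held Lef1, Tcf7l2, Gsk3b and Apc, of which 3 were called lower, while Axin1 lay in the third quintile, where 31.2% were called lower. With the length trend removed from the counts, a fit chosen after the data were seen, the log2 fold changes were −0.56 for Apc, −0.55 for Tcf7l2, −0.40 for Axin1 and −0.24 for Gsk3b, and all 4 stayed called (highest edgeR adjusted p = 0.00291). With trends of length and GC content removed together, Axin1 was at −0.12 and lost its call (edgeR adjusted p = 0.174), while Apc, Tcf7l2 and Gsk3b kept theirs.

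**Figure D3:**
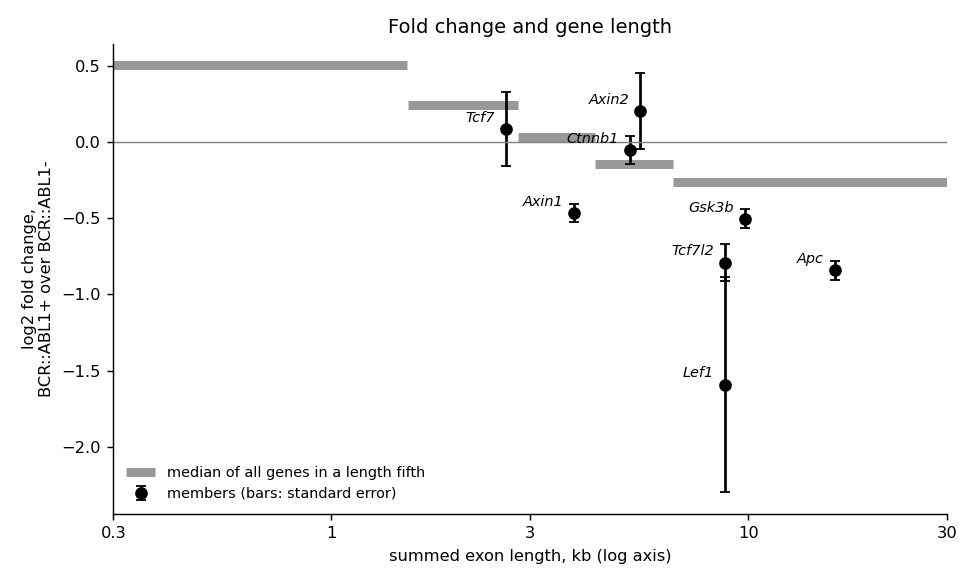
Log2 fold change, BCR::ABL1+ over BCR::ABL1- (y axis), against summed exon length in kb (x axis, log scale). Points are the 8 genes with their standard error, and grey bars are the medians of all genes tested in each quintile of length, from 0.50 in the shortest to −0.27 in the longest. Apc, Tcf7l2, Gsk3b and Axin1 lie below the median of their quintile, as do Lef1 and Tcf7, while Axin2 and Ctnnb1 lie above it.

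**Figure D4:**
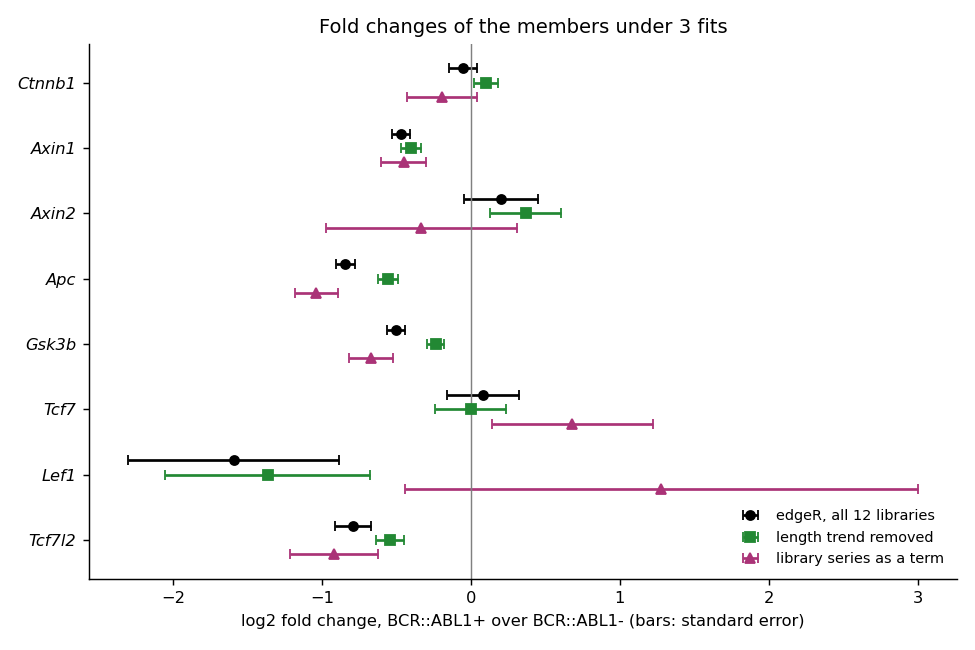
Log2 fold change of each of the 8 genes (x axis, bars are the standard error) in 3 fits, namely edgeR on all 12 libraries, the same after the length trend was removed, and with the library number series as a term. Apc, Tcf7l2, Gsk3b and Axin1 are below 0 in all 3, while the series term, which leaves replicate 6 of each group to set the contrast, puts Lef1 at 1.28 and Axin2 at −0.33.

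The other genes of the pathway were taken as 7 lists by role, 118 genes in all, of which 77 passed the filter. Of the 77, 40 were lower and 8 higher in BCR::ABL1+ cells, that is 62.3% called, near the 59.5% of all genes tested. In the lower direction they were 51.9%, against 29.0% of all genes tested and 51.9% of those in the longest quintile. Their exon lengths ran from 1.23 to 16.9 kb, so the longest quintile is not matched to them in length. Their median log2 fold change was −0.39 against 0.07 over all genes tested.

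Most Wnt ligands were under the filter on low counts in these cells. With the genes of their secretion 5 of 25 passed, and 20% of these were called against 59.5% of all genes tested. The single call was Wls, which escorts ligands to the cell surface and rose from 97.9 ± 5.35 to 144 ± 31.3 CPM (log2 fold change 0.56, edgeR adjusted p = 0.000648). Of the receptors 15 of 19 were tested, with 6 lower and 0 higher (0 also at an unadjusted p under 0.05), or 40.0% called against 59.5% of all genes tested. Without BCR::ABL1+ libraries 2 and 4 the calls were 10, all lower, where 12130 of 18946 genes were called in the whole table. With the library series as a term they were 2, Lrp5 and Lrp6, where 4644 of 18438 genes were called. The co-receptor Lrp6 went from 175 ± 6.20 to 115 ± 11.3 CPM (log2 fold change −0.61, edgeR adjusted p = 2.45e-06) and Lrp5 from 152 ± 10.5 to 118 ± 22.8 CPM (−0.36). Lrp5 lost its call with the length trend removed, at −0.094 (edgeR adjusted p = 0.407). It was at 0.18 and not called with trends of length and GC content removed together (edgeR adjusted p = 0.0877). The Frizzled receptors called were Fzd3 (−1.07), Fzd5 (−0.92), Fzd7 (−0.58) and Fzd6 (−0.53), each at a mean of at most 31.1 CPM in BCR::ABL1- cells.

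Of the antagonists 5 of 17 were tested and 3 called, or 60% against 59.5% of all genes tested. Znrf3, a ubiquitin ligase that removes Frizzled and is itself a target of the pathway, fell by 0.54 on the log2 scale (edgeR adjusted p = 0.00109). The other 2 calls, Sfrp1 and Dkk3, were higher and are named after their values were seen. Both calls were carried by BCR::ABL1+ libraries 2 and 4. Sfrp1, a secreted Wnt binder, had 23.9 and 9.66 CPM in these and at most 0.245 CPM in the other 4, against 0.221 to 1.01 CPM in controls, and Dkk3 had 6.16 and 5.05 CPM in these and at most 1.04 CPM in the others. Without both libraries Sfrp1 was lower, with a log2 fold change of −2.32 (edgeR adjusted p = 0.00411) in place of 3.29, and Dkk3 was at −0.12 (edgeR adjusted p = 0.818) in place of 1.81. Znrf3 was the single call of the list without BCR::ABL1- library 1, 2, 4, 5 or 6 or without BCR::ABL1+ library 4. With trends of length and GC content removed, Znrf3 lost its call, and the calls of the list were Sfrp1 and Dkk3.

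The cytoplasmic relay and the nuclear partners held most of the calls. Of the relay genes 23 of 24 were tested, with 16 lower and 1 higher, or 73.9% called against 59.5% of all genes tested. The share called lower was 69.6%, against 29.0% of all genes tested and 51.9% of those in the longest quintile. The relay genes ran from 2.16 to 16.9 kb, so that quintile is not matched to them in length either. With trends of length and GC content removed, 11 relay genes were lower and 4 higher. In that setting 8912 of 17803 genes were called in the whole table. All 3 Dishevelled genes fell, Dvl1 from 53.9 ± 3.39 to 26.7 ± 4.96 CPM (log2 fold change −1.01), Dvl2 by 1.02 and Dvl3 by 0.92 on the log2 scale (edgeR adjusted p at most 5.44e-06). So did the casein kinase Csnk1g2 (−0.86) and the planar polarity gene Vangl2 (−1.03). The exception was Daam1, a formin of the non-canonical branch, which rose from 19.9 ± 1.80 to 43.0 ± 10.9 CPM (log2 fold change 1.11, edgeR adjusted p = 1.75e-05). Of the nuclear partners 15 of 16 were tested and 15 were called, 12 lower and 3 higher, with a median log2 fold change of −0.82. That is 80% lower and 20% higher, against 29.0% and 30.6% of all genes tested. With trends of length and GC content removed, 9 were lower and 3 higher. The β-catenin coactivators fell, Bcl9l from 92.2 ± 4.00 to 34.8 ± 5.41 CPM (−1.40, edgeR adjusted p = 3.06e-08), Bcl9 (−0.92), Pygo2 (−0.95) and Crebbp (−0.86), and so did the Groucho family genes Tle2 (−2.17) and Tle5 (−0.91), which act with TCF/LEF as corepressors or modulators of them. The 3 higher genes, named after their values were seen, were Cby1, which binds and inhibits β-catenin (0.64), and the corepressors Tle1 (0.40) and Ctbp2 (0.15). Ctbp2 was at −0.099 with per-kilobase library sizes, where it lost its call (edgeR adjusted p = 0.346), and at −0.031 with the library series as a term. It also lost its call with DESeq2 (DESeq2 adjusted p = 0.0709). The same held in edgeR without a filter (adjusted p = 0.353), with a replicate block (0.0892) and without BCR::ABL1+ libraries 2 and 4 (0.112). So it was without BCR::ABL1- library 1, 2, 3 or 4 or BCR::ABL1+ library 1 or 2.

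Among catenin and cadherin partners 6 of 7 were tested, with 1 lower and 1 higher, or 33.3% called against 59.5% of all genes tested. Ctnna1, the α-catenin that ties β-catenin at junctions to actin, fell from 114 ± 7.14 to 70.1 ± 21.6 CPM (log2 fold change −0.71, edgeR adjusted p = 0.00114). Cdh1, E-cadherin, was called higher at 2.94 ± 0.780 and 9.87 ± 11.7 CPM with overlapping groups (1.75, edgeR adjusted p = 0.0396). The same BCR::ABL1+ libraries 2 and 4 had 26.4 and 23.4 CPM of Cdh1 and the other 4 at most 3.75 CPM, and without both it was at −0.34 (edgeR adjusted p = 0.383). Of the textbook target genes 11 of 16 were tested, with 5 lower, 0 higher (0 also at an unadjusted p under 0.05) and a median of −0.45, or 45.5% called against 59.5% of all genes tested. Sox4 fell by 0.95 on the log2 scale (SE 0.0786, edgeR adjusted p = 2.07e-07), Mycn from 69.3 ± 5.56 to 22.5 ± 9.65 CPM (−1.62, edgeR adjusted p = 1.16e-05), and Jun (−1.31), Znrf3 (−0.54) and Ppard (−0.45) were the others. Of other textbook targets, none of 3 was called in the edgeR fit with TMM factors on all libraries. Myc was at 321 ± 22.4 and 302 ± 36.7 CPM, Ccnd1 at 57.1 ± 8.64 and 51.4 ± 21.4 CPM and Cd44 at 315 ± 23.0 and 290.0 ± 53.2 CPM. These 3 were named after their values were seen. With per-kilobase library sizes 7 targets were called, all lower, among them Myc (−0.34, edgeR adjusted p = 0.0114) and Cd44 (−0.37, edgeR adjusted p = 0.0134). The target calls rose to 9, all lower, without BCR::ABL1+ libraries 2 and 4, where 12130 of 18946 genes were called in the whole table. There Ccnd1 was at −0.47 (edgeR adjusted p = 0.0175), Cd44 at −0.24 (edgeR adjusted p = 0.0363) and Myc at −0.12 (edgeR adjusted p = 0.156). With trends of length and GC content removed the target calls were 3, namely Jun, Mycn and Sox4, where 8912 of 17803 genes were called in the whole table.

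**Figure D5:**
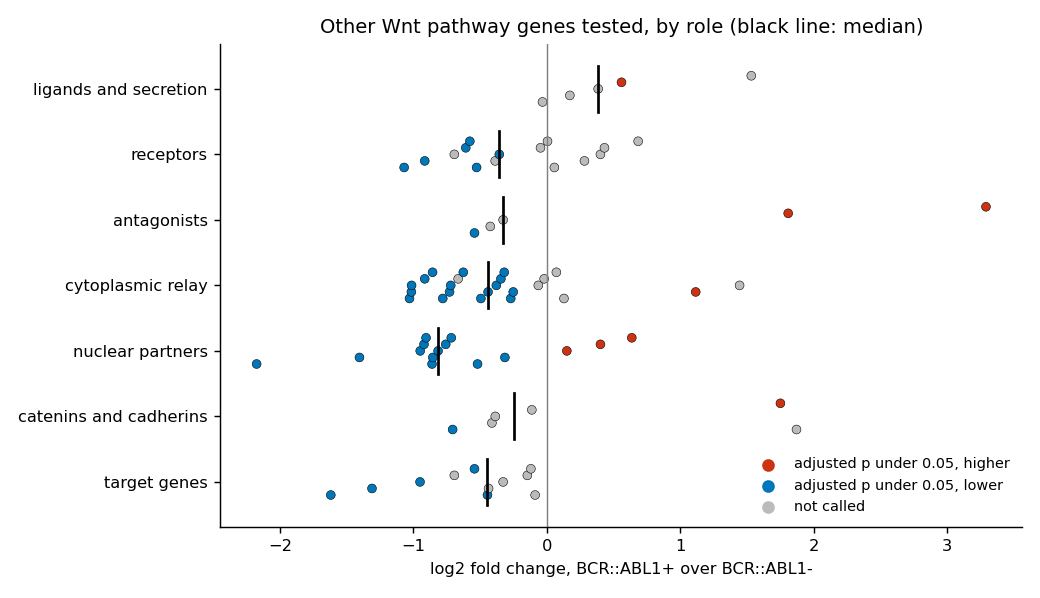
Log2 fold change, BCR::ABL1+ over BCR::ABL1- (x axis), of the other Wnt pathway genes tested, by list (y axis). Points are genes coloured by their call, and the black line is the median of a list, −0.82 for the nuclear partners and 0.38 for ligands and secretion.

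For the 4 genes that fell, the genes with the most similar pattern were sought by Pearson's r of log2 CPM over the 12 libraries, among 10159 genes with a mean log2 CPM of at least 3. The points share their 2 groups and library depth, so r is a description only. Apc was nearest to Zfp652 and Sympk (r = 0.996 each), Gsk3b to Tln1 (0.994), Atp2a3 (0.994) and Ankrd13a (0.993), Axin1 to Cfap97 (0.988), Smarcd2 (0.987) and Zfp422 (0.987), and Tcf7l2 to St3gal5 (0.983), Stx17 (0.980) and Rps6kb2 (0.979). Each gene named here had a negative log2 fold change.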

How the data were processed

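The data were 12 bulk RNA-seq libraries of sorted donor LSK cells, 6 per group, grouped by their labels. The authors deposited a table of raw counts by Ensembl gene per library, without normalization. The submitters' processing notes name FastQC 0.11.9, fastp 0.23.2, STAR 2.7.10a, featureCounts 2.0.1, DESeq2 1.36.0 and the build mm39/GRCm39. The paper's methods name HISAT2 and hg38 for bulk RNA-seq. Annotation, strand and the treatment of reads mapping to several places are not given in the sources used here, so counts of overlapping genes are uncertain. BCR::ABL1 itself was not analysed here.

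The 8 genes and all lists were chosen with earlier results of these data known. Of 56748 identifiers 52073 had a symbol. Counts were fitted with edgeR 4.0.16 in R 4.3.3 (quasi-likelihood test, TMM factors, filterByExpr, 18438 genes, Benjamini-Hochberg threshold 0.05). CPM are TMM-scaled. TPM and reads per kilobase used summed exon lengths of the GENCODE M21 annotation, and Tle5 was matched by an older symbol. Ratios and the TCF/LEF sum were tested over all 924 splits of 12 libraries into 6 and 6, with a Benjamini-Hochberg adjustment over 5 values. Named genes were the 8, per list up to 6 with the largest absolute log2 fold change among those with an adjusted p under 0.05 and a mean log2 CPM of at least 1, the ratio partners, and the 3 nearest patterns of each gene called, of which 1 gene is not reported here. Genes outside this rule are said to be named after their values were seen.

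No 2 libraries agreed within sampling noise (lowest chi-square per degree of freedom 3.84). A count of 0 allows up to 3 counts, which covers counting error only. Alternatives were DESeq2 1.42.0, limma 3.58.1 (voom), other scalings and filters, a replicate block, a library series term and left-out libraries. Removal of length and GC trends, per-kilobase library sizes and the TMM-scaled TCF/LEF sum were chosen after seeing the data. The edgeR step was tested on simulated data. Other steps used Python 3.11.15 (scipy 1.17.1, numpy 2.4.6, matplotlib 3.10.9, pandas 2.3.3). Promoter sequences are from RefSeq.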

Additional observations from a re-analysis of the deposited data

Results flagged for a closer look

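The spread within groups was examined by Dixon's test in 38 groups of 6 libraries, of which 4 held a library far from the others, while chance flags about 1 in 20 groups. The log2 ratio of Tcf7 to Lef1 was 5.25 in BCR::ABL1- library 6, against 3.20 in the next control. T cell and NK cell markers summed to 103.5 CPM in BCR::ABL1- library 2, with 126 CPM in the next. BCR::ABL1+ library 2 was the highest of its group both in mast cell and basophil markers, with 2994 CPM against 1281 CPM in the next, and in stromal and endothelial markers, with 1096 CPM against 484 CPM. These markers' part in the Wnt gene levels was not tested.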

How the results depend on the processing

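The calls of Apc, Gsk3b and Tcf7l2 kept their direction and an adjusted p under 0.05 in all 27 alternatives run for each gene, with log2 fold changes of −1.09 to −0.56, −0.75 to −0.24 and −1.04 to −0.55. Axin1 kept them in 26, with 0.174 as the exception when length and GC trends were removed together. The number of the 8 genes called ranged from 3 in that setting to 6 with per-kilobase library sizes, and from 4 to 5 with single libraries left out. The call of Lef1 turned on single libraries, and the cause was not tested.

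Signs changed for genes that were not called. With the library series as a term Lef1 was at 1.28 and Axin2 at −0.33, in a contrast set by replicate 6 of each group. Ctnnb1 was at 0.019 with upper-quartile factors, 0.10 without the length trend, 0.12 without length and GC trends, and −0.14 to 0.0056 with single libraries left out, the highest without BCR::ABL1+ library 3. Tcf7 was at −0.079 without both libraries of the shared series, −0.067 without BCR::ABL1+ libraries 2 and 4, −0.11 to 0.21 with single libraries left out (below 0 without BCR::ABL1+ library 2 or 6), −0.0011 without the length trend and −0.19 with per-kilobase sizes, where Axin2 was at −0.041. Axin2 was at −0.083 without BCR::ABL1+ libraries 2 and 4. Lef1 passed the threshold with limma-voom (−2.48), without both libraries of the shared series (−1.94), without BCR::ABL1+ libraries 2 and 4 (−2.43) and with per-kilobase sizes (−1.83, adjusted p = 0.0361).

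Called genes of the whole table numbered 10185 to 12007 with single libraries left out, and 4644 with the series term, of which 2468 were lower. They numbered 12130 without BCR::ABL1+ libraries 2 and 4 and 8912 without length and GC trends. Of the genes called in the edgeR fit with TMM factors on all libraries 48.6% were lower, and 68.3% with per-kilobase sizes. Of the lists, catenin and cadherin partners held 5 calls with DESeq2, 4 of them in genes that passed the filter on low counts. They held 1 with the series term (1 to 3 with single libraries left out). Ligands held 3 calls with DESeq2 and 5 without a filter, in each case with 1 in a gene that passed the filter. They held 2 without length and GC trends and 3 without BCR::ABL1+ libraries 2 and 4 (1 to 3). Antagonists held 1 with a CPM filter and 1 with the series term (1 to 3). The relay held 11 and the receptors 2 with the series term. Without BCR::ABL1+ libraries 2 and 4 the receptors held 10 and the targets 9. The targets held 3 without length and GC trends.

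With single libraries left out, the log2 difference was 0.51 to 0.79 for Axin2 to Axin1, 2.02 to 3.22 for Tcf7 to Lef1 and −0.82 to −0.43 for Jup to Ctnnb1. Without BCR::ABL1+ libraries 2 and 4 the Axin2 ratio differed by 0.39 (exact permutation adjusted p = 0.124) and the Jup ratio by −0.97 (0.0238). The TMM-scaled TCF/LEF sum differed by −0.44. Replicate numbers did not pair the libraries (r of same-numbered deviations −0.13 to 0.07). With a replicate block the Lef1 log2 fold change was −2.18 with an edgeR adjusted p of 0.0467, and the Axin2, Tcf7 and Gsk3b ratios and the TCF/LEF sum, at 0.63, 2.60, 0.28 and −0.69, had exact permutation adjusted p-values of 0.104, 0.125, 0.0781 and 0.0781. This paired test flips signs within 6 pairs, and the Gsk3b ratio and the sum had the smallest unadjusted p it allows. Their adjusted p-values therefore cannot separate a weaker difference from the small number of pairs.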
